A study of Canis lupus familiaris and Eptesicus fuscus and Equus caballus with 6 samples.

Results

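Simple repeat RNA was described in the mRNA libraries of adult dog and adult horse testis, as the RNA assigned to repeat models named as simple repeats or low complexity sequence. The members were every model of the dog and horse files whose name ends in one of these classes, 159 of 955 models in dog and 156 of 986 in horse, or 160 different models in all. Of these, 158 are tandem repeats of a unit of 1 to 6 nt, written as (GA)n for copies of GA, and 2 are AT-rich and GC-rich sequence with no unit. The bat file, of 511 models, lists none of them.

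The series holds testis RNA of dog, horse and the bat Eptesicus fuscus, with 1 small RNA library and 1 mRNA library from each, and its title places the work in piRNA targeting of transposable elements. All tissue was adult testis, snap frozen, with no treatment named in the labels, and the labels used here name no breed, further age or number of animals. With 1 library per group no difference below has a replicate check and no test was made, so intervals cover counting error only. The mRNA files list repeat models and no testis genes, so that the tissue label was not checked against markers. In bulk RNA, fewer cells of a type and less RNA per cell cannot be told apart.

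Simple repeats, or microsatellites, are short units repeated head to tail. They change in length through slippage of DNA polymerase and lie mostly between genes and in introns and untranslated regions, so that they are carried in many transcripts that are not themselves repeats. Purine-only units such as GA, GAA and GGAA place purines on one strand and pyrimidines on the other. The unit CA, whose other strand reads TG, is the most common dinucleotide repeat of mammalian genomes. Copies of CCCTAA form the telomere, and long CAG repeats in coding sequence are known from expansion diseases in humans.

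The deposited files hold no sequence for the models, but the small RNA files hold sequences that consist of nothing but tandem copies. The following reads are shown because they are the most read whole tandems of leading units in the dog and horse small RNA libraries, other than runs of a single base, except that the horse (CA)n read is 1 of 4 sequences with 1 read each, and capitals mark the first copy of the unit as it is listed. The listed strand is that of the file and need not be that of the RNA.
Dog, unit of (TGGA)n: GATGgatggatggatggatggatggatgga
Dog, unit of (GA)n: TCtctctctctctctctctctctctctct
Dog, unit of (GAAA)n: TTTCtttctttctttctttctttctttct
Dog, unit of (TGAA)n: ATGAatgaatgaatgaatgaatgaatgaa
Horse, unit of (TGAA)n: AATGaatgaatgaatgaatgaatgaatgaa
Horse, unit of (CA)n: ACacacacacacacacacacacacaca

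Simple repeats held more of the repeat RNA in dog than in horse, and purine-only repeats held most of that difference. In TPM, the deposited unit (transcripts per 1000000, here over the repeat models of a file), the members summed to 12963 in dog and 3886 in horse. These are 1.30% of the dog file (95% counting interval 1.21 to 1.39%) and 0.389% of the horse file (0.341 to 0.442%). The dog sum was 3.34 times the horse sum (2.88 to 3.87). Without the 15 purine-only models the sums were 4354 and 3319 TPM, 1.31 times higher in dog (1.09 to 1.58).

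Most models were listed at 0. The 158 unit models are 180 nt long, so that their TPM values compare directly, and 1 read is worth 14.89 TPM in dog and 16.77 TPM in horse. On this scale the members held 871 reads in dog and 232 in horse, of 679465 and 666103 reads rebuilt over all models. In dog 35 members had a value above 0 and 124 were listed at 0, and in horse 23 had one and 133 did not. Of the 39 members with reads in either library, 19 had them in both, 16 in dog alone and 4 in horse alone. Over all 834 models named alike in both files, 364 had a value above 0 in either. No like split of these is given, so the split of the members is a description. A floor of 3 reads stands at 44.7 TPM in dog and 50.3 TPM in horse, so a member listed at 0 is not shown to be absent below that level. The models of (A)n and (G)n and the AT-rich and GC-rich models were at 0 in both libraries. In both libraries rRNA models took much of the file, 51.2% of TPM in dog and 47.7% in horse. As a share of reads they took 84.4% in dog and 72.1% in horse. The part of this in the differences was not tested. Against rRNA models in place of the whole file, the dog over horse ratio of the members moved by a factor of 0.932. Against the reads of transposable elements, a setting chosen after seeing the data, it moved by a factor of 1.90.

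**Figure D1:**
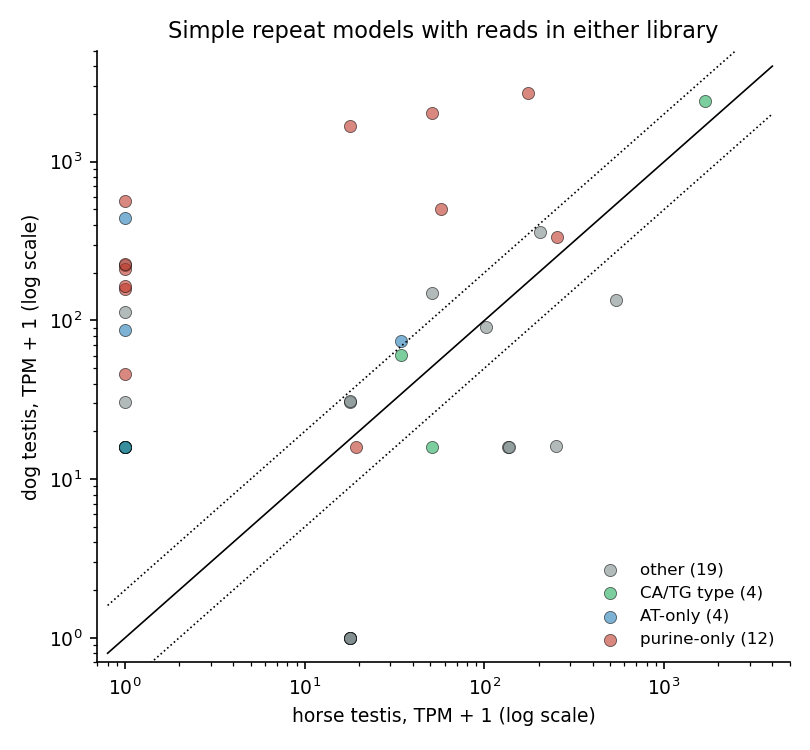
TPM + 1 of the 39 simple repeat models with reads in either library, in horse (x axis, log scale) and dog (y axis, log scale), 1 library each. Each point is 1 model coloured by the composition of its unit, points with equal values lie on each other, the solid line marks equal values and the dotted lines a 2-fold difference. Of the 12 purine-only models, 11 lie above the solid line.

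Purine-only repeats were the leading group in dog and a minor one in horse. The 15 models summed to 8609 TPM in dog (7919 to 9338) and 567 TPM in horse (395 to 797), a ratio of 15.2 (10.7 to 22.0). They made up 66.4% of the simple repeat TPM in dog and 14.6% in horse. Reads fell on 12 of these models in dog and on 6 in horse, and 11 of the 12 were higher in dog. No like count over all models is given, so these counts are a description.

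The dinucleotide (GA)n had the highest TPM of all members in dog, at rank 22 of the file, with 2701 TPM or 181 reads. In horse it had 173 TPM or 10.3 reads, at rank 158. The dog value was 15.6 times the horse value (8.54 to 34.1), and the bounds deposited with each value, 2308 to 3089 in dog and 83.4 to 299 in horse, did not overlap. (GGAA)n had 2018 TPM in dog and 50.3 in horse, 136 against 3 reads, a ratio of 40.1 (13.5 to 198). For (GAAA)n the values were 1670.2 TPM in dog and 16.8 in horse, 112 reads against 1, with a ratio of 99.6 and an interval as wide as 17.5 to 3962. (GAA)n had 505 TPM in dog and 56.0 in horse, a ratio of 9.03 (3.16 to 51.2). These ratios rest on few horse reads, so their order among themselves is not resolved by their intervals.

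Of the 6 purine-only units of 5 nt, 5 had reads in dog and none had reads in horse. (GGAAA)n led them with 563 TPM, or 37.8 reads, at least 11.2-fold higher than the horse floor of 3 reads in the library. (GGGAA)n had 226 TPM in dog (at least 4.50-fold), (GAGAA)n had 211 TPM (at least 4.19-fold) and (GAAAA)n had 156 TPM (at least 3.103-fold). (GGAGA)n had 44.7 TPM in dog, 3 reads, which is too few for a bound, and (GGGGA)n was listed at 0 in both. The floor leaves out the counting error of the dog value, and with it the exact intervals of the ratio begin at 8.71 for the first of these units, at 3.18 for (GGGAA)n, at 2.95 for the third and at 1.99 for (GAAAA)n. The 6 models of this length together had 1201 TPM in dog and were listed at 0 in horse. Of the 3 units of 6 nt only (GGAGAA)n had reads, 164 TPM in dog and none in horse (at least 3.26-fold higher in dog, interval from 2.23).

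Among purine-only repeats rich in G, the most abundant did not share the size of this difference. (GGA)n had 335 TPM in dog and 253 in horse, 22.5 against 15.1 reads, and its ratio of 1.32 had an interval that holds 1 (0.646 to 2.70). (GGGA)n had 14.9 TPM in dog and 18.2 in horse, about 1 read each. Units with more A than G summed to 3105 TPM in dog and 72.8 in horse, a ratio of 42.7 (17.9 to 172). Units with as much A as G summed to 4883 and 224 TPM, a ratio of 21.8 (12.9 to 42.5). The 7 units with more G than A summed to 621 and 271 TPM, a ratio of 2.29 (1.28 to 4.44). This split was made after the values were seen. The interval of the G-rich units lies below both others, which overlap each other, but this rests on (GGA)n. Without it the G-rich units summed to 286 TPM in dog and 18.2 in horse, a ratio of 15.7 (2.68 to 701), with (GGGAA)n the largest of them.

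AT-only repeats were few in both libraries and higher in dog. The 10 models summed to 617 TPM in dog and 33.2 in horse, 41.4 reads against 1.98, a ratio of 18.6 with an interval of 4.73 to 155. (TAAA)n held most of the dog value with 442 TPM and was listed at 0 in horse (at least 8.79-fold higher in dog, interval from 6.79). (TAAAA)n had 86.6 TPM in dog and was listed at 0 in horse, with 5.81 reads behind the dog value (at least 1.72-fold, interval from 1.05), and its deposited bounds overlapped. (TA)n, the shortest of them that had reads, had 73.3 TPM in dog and 33.2 in horse, a ratio of 2.21 that is not resolved from 1 (0.363 to 23.3).

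Repeats of the CA/TG type were the leading group in horse. Their 15 models summed to 2492 TPM in dog and 1775 in horse, 19.2% and 45.7% of the simple repeat TPM. The ratio was 1.40 (1.09 to 1.80), and it came almost wholly from (CA)n. (CA)n had 2403 TPM in dog and 1692 in horse, 161 and 101 reads, and ranked 23 in the dog file and 43 in the horse file. Its ratio was 1.42 (1.10 to 1.83), while the deposited bounds of 2031 to 2772 and 1370.1 to 2035 overlapped. The other members with reads were small. (CAA)n had 14.9 and 50.3 TPM, (TGG)n had 59.3 and 33.5, and (CCCA)n had 14.9 TPM in dog alone. Within each library, where the scaling of TPM cancels, purine-only repeats summed to more TPM than the CA/TG type in dog and to less in horse.

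**Figure D2:**
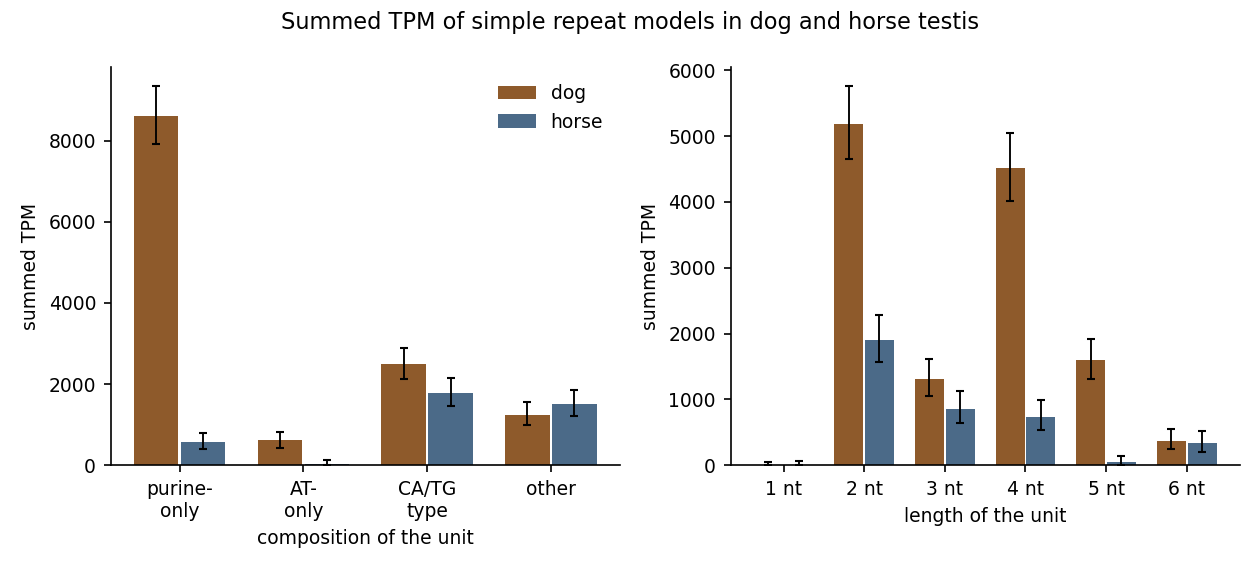
Summed TPM of the simple repeat models in dog and horse testis, by composition of the unit (left) and by its length (right). Bars are sums over models in 1 library each, and error bars are exact 95% Poisson intervals of the reads. Purine-only models stand at 8609 TPM in dog and 567 in horse, while the dog and horse bars of the CA/TG type and of other units are closer, at 2492 and 1775 TPM and at 1246 and 1510 TPM.

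The remaining repeats, of mixed composition, were the only group with a lower sum in dog. Their 120 models summed to 1246 TPM in dog and 1510 in horse, a ratio of 0.825 with an interval that holds 1 (0.608 to 1.13). Single members lay on both sides. (TGGA)n had 134 TPM in dog and 536 in horse, 9 against 32 reads, and the dog value was 0.250 times the horse value (0.105 to 0.535). (CAT)n had 15.1 TPM in dog and 249 in horse, a ratio of 0.0607 (0.00141 to 0.385) that rests on 1 dog read. The deposited bounds of these 2 members did not overlap, with horse higher. (CACCAT)n and (CAGAGA)n, with 1 read each in dog, had 134 and 136 TPM in horse, and the interval of both ratios ended at 0.828.

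Other mixed units were higher in dog or level. (CTATT)n had 223 TPM in dog and was listed at 0 in horse (at least 4.42-fold higher in dog), with an exact interval that begins at 3.18. (TGAA)n had 112 TPM in dog and was listed at 0 in horse (at least 2.23-fold, interval from 1.52), but its deposited bounds overlapped, with 47.9 to 214 in dog and up to 49.4 in horse. (CAG)n had 359.8 TPM in dog and 204 in horse, and its ratio of 1.77 had an interval from 0.854 to 3.90. The telomere unit (CCCTAA)n had 149 TPM in dog and 50.3 in horse, 10 reads against 3, with a ratio of 2.96 (0.762 to 16.7). (TAGA)n was at 89.4 TPM in dog and 100.6 in horse (ratio 0.888, 0.237 to 3.32). None of the last 3 is resolved from 1.

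By the length of the unit, dog was well above horse for units of 2, 4 and 5 nt, and most of the TPM difference at each of these lengths lay in purine-only models. Units of 2 nt summed to 5177 TPM in dog and 1898 in horse (ratio 2.73, 2.21 to 3.41), and those of 3 nt to 1304 and 862 (1.51, 1.07 to 2.21). Units of 4 nt had 4510.2 TPM in dog and 739 in horse (6.10, 4.45 to 8.59). Units of 5 nt had 1599 TPM in dog and 50.3 in horse, where 3 reads lie behind the horse value (31.8, 10.5 to 156). Units of 6 nt had 372 and 337 TPM (1.11, 0.592 to 2.11). Without purine-only models the 4-nt units stood at 807 and 654 TPM, a ratio of 1.23 (0.799 to 1.91), and the 3-nt units at 464 and 553 TPM, a ratio of 0.839 (0.494 to 1.40). The 2-nt units without (GA)n kept a ratio of 1.44 (1.11 to 1.85). At 5 nt the other units had 399 TPM in dog and 50.3 in horse, a ratio of 7.92 (2.46 to 41.2). The 2 models with a unit of 1 nt were at 0 in both libraries.

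Set against other repeats named alike in both files, simple repeats stood on the other side of the dog and horse comparison. This leaves out models named in a single file. Over all transposable element models of each file the sums were closer, at 456983 TPM in dog and 493260 TPM in horse. Of the 834 models named alike in both files, 175 had at least 10 reads in either library, and 8.57% of these were more than 2-fold higher in dog on the log2(TPM + 1) scale. Of the 17 simple repeat models among the 175, 12 were past 2-fold in dog. In the other direction 81.7% of all models were past 2-fold in horse, against 2 of the 17. The median log2 difference, dog minus horse, was -2.49 over all 175 models and 5.30 over the 17. This median depends on the pseudocount of 1 TPM, since many of the 17 were at 0 in horse. The 17 were admitted by 10 reads in either library, 11 of them by their dog reads alone and 2 by their horse reads alone, so that most of them had to differ and these counts are a description. With at least 10 reads in both libraries 4 members remained, of which 1, (GA)n, was past 2-fold.

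The deposited TPM bounds gave a like picture. They lay apart, with dog higher, for 9.71% of the 175 models and for 11 of the 17 simple repeats, and apart with horse higher for 75.4% and for 2. By composition, 9 of the 10 purine-only models admitted were past 2-fold in dog, as was the single AT-only model, but not the single model of the CA/TG type, (CA)n. Of the 5 mixed models 2 were past 2-fold in dog and 2 in horse. Over all 39 members with a read, with no floor on reads, 28 had the higher TPM in dog and 11 in horse. This too is a description, with no like count over all models.

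**Figure D3:**
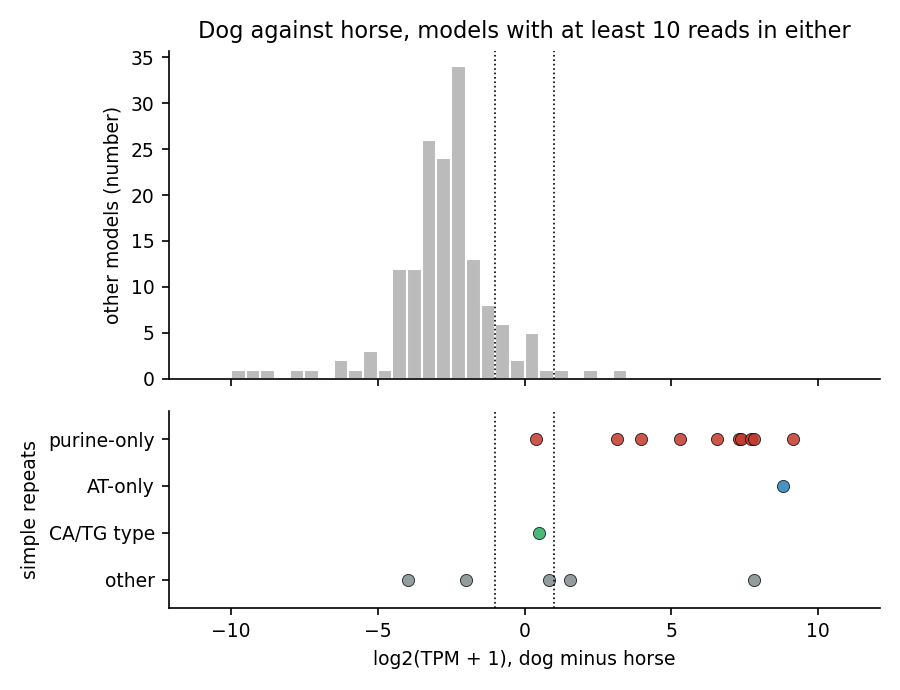
Difference in log2(TPM + 1), dog minus horse, for the 175 models named alike with at least 10 reads in either library. The upper panel counts the 158 models that are no simple repeats, in steps of 0.5, the lower panel shows the 17 simple repeat models by composition of the unit, and dotted lines mark 2-fold. The other models centre on -2.64, and all 10 purine-only points lie right of 0.

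A readout that the models did not use is the small RNA of the same species, in reads of 24 to 32 nt. Whole tandems of a unit of 1 to 6 nt, in any phase and on either strand, were rare in all 3 libraries. They made up 206 of 41328689 reads in dog, 31 of 35830283 in horse and 492 of 5828928 in bat. In RPM (reads per 1000000 listed reads) these are 4.98 in dog (4.33 to 5.71), 0.865 in horse (0.588 to 1.23) and 84.4 in bat (77.1 to 92.2). No molecular identifiers separate PCR copies here, so the intervals cover counting error only. How the authors selected these lengths, and whether repetitive reads were filtered, is not given in the sources used here.

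Whole tandems of purine-only units were found in the dog small RNA and not in that of horse. They held 77 reads of 26 sequences in dog, or 1.86 RPM (1.47 to 2.33), and 0 reads in horse, where the floor of 3 reads in the library is 0.0837 RPM and the exact interval ends at 0.103 RPM. Dog was at least 22.3-fold higher against that floor, and the exact interval of the ratio begins at 17.7. With 1 mismatch allowed horse had 10 purine-only reads and dog 123, a ratio of 10.7 (5.61 to 22.8). Of the 77 dog reads, 53 were tandems of (GA)n and 22 of (GAAA)n, the units with rank 1 and rank 4 in mRNA among the members. (GGAA)n, at rank 3 in mRNA, had no whole tandem in the dog small RNA. The purine-only reads of dog were listed as C and T for 72 reads and as A and G for 5. Since the listed strand need not be that of the RNA, the strand of the RNA was not read from this. The bat library had 32 purine-only reads, 5.49 RPM (3.76 to 7.75), and its most read (GA)n sequence was the same 29 nt as in dog.

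Whole tandems of AT-only and CA/TG units did not differ detectably between dog and horse small RNA. AT-only tandems had 10 reads in dog and 11 in horse, all of them copies of a single base, and CA/TG tandems had 4 reads in each, with ratios of 0.788 (0.300 to 2.04) and 0.867 (0.161 to 4.65). With 1 mismatch allowed the CA/TG ratio was 2.31 (1.04 to 5.65). In bat the unit of (A)n alone held 337 reads, 57.8 RPM (51.8 to 64.3). Mixed units held 115 reads in dog and 16 in horse, a ratio of 6.23 (3.68 to 11.3), but with 1 mismatch allowed the direction turned, with 199 reads in dog and 252 in horse and a ratio of 0.685 (0.566 to 0.828). The dog reads were mostly tandems of (TGGA)n, with 92 reads of 21 sequences, against 1 read in horse and 17 in bat. The order of (TGGA)n was thus the reverse of that in mRNA, where horse had 536 TPM and dog 134.

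**Figure D4:**
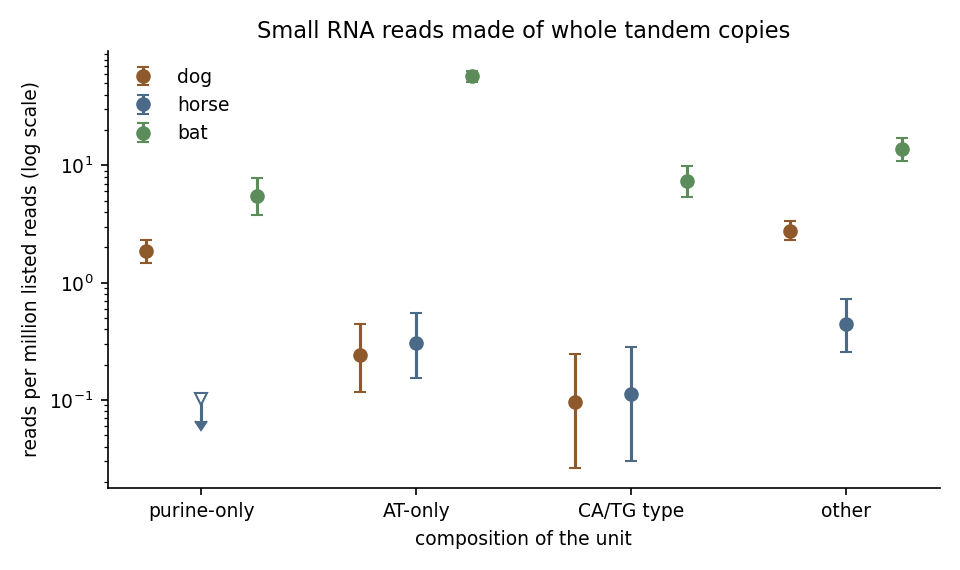
RPM (reads per 1000000 listed reads) of small RNA of 24 to 32 nt that consist of whole tandem copies, by composition of the unit (log scale), in 1 library per species. Points are shares with exact 95% binomial intervals, and the open triangle is the upper limit for horse, where 0 purine-only reads were found. Dog stands at 1.86 RPM of purine-only tandems, while dog and horse lie within each other's intervals for AT-only and CA/TG units.

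Tracts of at least 20 nt of perfect copies, the whole tandems above included, were more frequent and gave a wider set of units. They held 3039 reads in dog, 1879 in horse and 3328 in bat, or 73.5, 52.4 and 571 RPM. Purine-only tracts had 410 reads of 274 sequences in dog and 32 reads of 24 sequences in horse, a ratio of 11.11 (7.74 to 16.5). Of the dog reads 331 were (GA)n tracts, spread over 214 sequences, where horse had 3, so the purine-only ratio rests mostly on this unit. (GAAA)n had 35 tract reads in dog and 2 in horse. Other purine-only units were closer or had few reads, with 13 and 13 for (GAAAA)n, 11 and 8 for (GGA)n and 3 and 2 for (GGAA)n. Whole tandems made up 77 of the 410 dog reads and 53 of the 331. CA/TG tracts had 414 and 67 reads (5.36, 4.13 to 7.04), AT-only tracts 130 and 41 (2.75, 1.92 to 4.01) and mixed tracts 2085 and 1739 (1.04, 0.975 to 1.11). Most CA/TG tract reads of dog were of (CAAAA)n, with 181 reads against 10 in horse, and (CAA)n, with 122 against 2. (CA)n itself had 69 reads in dog and 50 in horse, or 1.67 and 1.40 RPM.

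For some units most tract reads fell on a few sequences, which need not be independent. The following are the most read sequences with a tract but no whole tandem for the leading units, with the tract in capitals, and they show the bases beside the repeat.
Dog, unit AACCTG with no model: tTGAACCTGAACCTGAACCTGtctgttgac
Dog, unit of (TGAA)n: tttgtTGAATGAATGAATGAATGAATGAA
Dog, unit of (CAAT)n: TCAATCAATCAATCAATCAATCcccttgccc
Horse, unit AGCTCC with no model: tatcaaTGGAGCTGGAGCTGGAGCTGGctc
Horse, unit of (TGAA)n: gggctggagTCATTCATTCATTCATTCATT
Bat, unit of (TGAA)n: ATGAATGAATGAATGAATGActaaatgagt
Bat, unit of (CAGA)n: tAGACAGACAGACAGACAGACAGACgggga

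The sequence of the AACCTG unit had 464 of the 786 reads of its unit in dog, which fell on 19 sequences, and the AGCTCC sequence had 568 of 948 reads on 21 sequences in horse. Tracts of (TGAA)n were high in all 3 species, with 618 reads of 140 sequences in dog, 621 of 144 in horse and 2014 of 158 in bat. These are 14.95, 17.3 and 346 RPM. In mRNA (TGAA)n had 112 TPM in dog, from 7.52 rebuilt reads, and was listed at 0 in horse, with deposited bounds that overlapped. Similar small RNA levels thus stood beside an mRNA difference that rests on few reads. The (CAGA)n tracts of bat had 575 reads on 56 sequences, of which the sequence shown held 214.

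The units of the mRNA models were also looked up among the small RNA tracts of the same species. In dog 25 of the 35 models with mRNA reads had tract reads (71.4%), against 21 of 122 listed models without (17.2%). In horse 14 of 23 models had them (60.9%), against 11 of 131 (8.397%). Whole tandems were found for 9 of the 35 and 5 of the 122 in dog, and for 4 of the 23 and 3 of the 131 in horse. Models with and without mRNA reads were not matched in unit length. In dog, mRNA reads fell on 11 of the 94 models with a 5-nt unit. They fell on 7 of the 10 with a 3-nt unit and 3 of the 4 with a 2-nt unit. The part of unit length in these shares was not tested. Several purine-only units were seen in mRNA alone. (GGGAA)n had no tract read in dog, nor had the units of (GAGAA)n or (GGAGA)n, and the unit of (GGAAA)n, at 563 TPM, had 1. The reverse was seen for (CAAAA)n, with 181 tract reads in dog, and for (A)n, with 24 in dog and 14 in horse, both listed at 0 in the mRNA of dog and horse. The 2 kinds of library share tissue and species but not a fraction or a length range, so these counts are set side by side as a description.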

How the data were processed

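Testis mRNA libraries of dog and horse and small RNA libraries of dog, horse and bat were used, 1 each. Bowtie, RSEM and the build CanFam3.1 are listed in the submitters' processing notes, horse and bat included, with no tool version or role. Per the file headers, the authors' mRNA files give TPM per repeat model and a signal column for each of 2 TPM bounds, whose level is not stated. Raw read counts per distinct sequence were deposited by the authors, and rows with the same sequence were summed.

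Members and unit groups were chosen with earlier results of these data known. AT-only units hold A and T alone, purine-only units A with G (or C with T), CA/TG units A with C (or G with T), and the rest are other. Named members had one of the 10 highest TPM in either file, or at least 10 reads in either with a counting interval that leaves out 1. The other members named, those listed at 0 or with few reads, were named after their values were seen.

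Reads were rebuilt as TPM times model length minus 24 nt, over the commonest low value. In the models under 20.5 reads, 53.8% in dog and 51.6% in horse lay within 0.05 of a whole number, so many models share reads. Among low members it was 73.1% of 26 and 66.7% of 21. Because reads are shared, intervals (exact Poisson, conditional binomial or Clopper-Pearson, 95%, on rounded reads) are approximate. Tandem searches were checked on simulated sequences with planted tandems. Read rebuilding was checked on simulated whole reads with the same offset of 24 nt. That check could not test the offset or the sharing of reads. Python 3.11.15, pandas 2.3.3, numpy 2.4.6, scipy 1.17.1 and matplotlib 3.10.9 were used.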

Additional observations from a re-analysis of the deposited data

How the results depend on the processing

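No paired analysis was possible because each group held 1 library, and no replicate could be left out. Directions held under every setting run for the groups past their counting interval, purine-only, AT-only, CA/TG and all members. For the main results 52 of the 88 alternative values stayed within the range set for them, but some of these could not move. Merging units with their reverse complement and rotations left every group sum as it was. So did keeping the members named in both files, since those dropped were listed at 0. In horse the 0 purine-only whole tandems also stay 0 at 26 to 32 nt and by distinct sequence. The values that moved follow. Without rRNA models the share of simple repeats was 2.65% in dog and 0.743% in horse, over transposable elements 2.84% and 0.788%, and as a share of reads 0.128% and 0.0348%. Rescaling to transposable elements, rRNA or all models but rRNA shifted every ratio by 0.11, -0.10 and 0.10 on the log2 scale. Against element reads, a setting chosen after seeing the data, ratios were 6.34 for all members, 28.8 for purine-only, 2.67 for CA/TG and 1.57 for other units, so that other units then stood higher in dog. Without the member of highest TPM they were 4.81 for all, 1.06 for CA/TG and 1.14 for other units. Without (TAAA)n the AT-only ratio was 5.26. Members past 2-fold numbered 22 in dog and 9 in horse with any value above 0, and 1 and 0 with at least 10 reads in both libraries. With at least 3 reads in either library they were 16 and 5. The cause of these moves was the choice of models admitted. In small RNA, tandems with 1 mismatch allowed were at 8.66 RPM in dog, 7.95 in horse and 166 in bat (purine-only 2.98, 0.279 and 10.3). With 20 nt of perfect copies they were 73.5, 52.4 and 571 (purine-only 9.92, 0.893 and 18.0), and at 26 to 32 nt 69.2 in bat. Per 1000000 distinct sequences they were 25.2, 4.78 and 109 (purine-only 8.85 in dog and 31.5 in bat). With 1 mismatch allowed the dog and horse totals were near level, while purine-only tandems kept a ratio of 10.7 (5.61 to 22.8). Low read numbers limit most single members, and a read on 1 model is worth 14.9 TPM in dog and 16.8 TPM in horse.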
